A study of Mus musculus with 21 samples.

Results

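Expression of 10 genes that bind metals or handle oxidants was examined in the cortex and hippocampus of GA-Camk2a mice. These were the metallothionein genes Mt1, Mt2 and Mt3, the enzyme genes Prdx6, Gpx1, Gpx4, Gstm1, Nqo1 and Hmox1, and Nfe2l2, which encodes the transcription factor NRF2. The genes were chosen by symbol, with earlier results of these data known. Each of the 10 was found in a count table with 64361 genes and was read from 1 row. GA-Camk2a mice carry a floxed transgene for GFP-tagged poly-GA, a dipeptide repeat protein made from the C9orf72 repeat expansion of ALS, and Camk2a-Cre restricts it to excitatory neurons. The control mice of these libraries are labeled only as ctrl, and the study's staining of this line names its controls Camk2a. The labels give an age of 30 to 40 weeks for mice of both genotypes. The study's text instead gives a single age for the sequenced mice, at the start of this range, about when it places the humane endpoint. RNA was counted by prime-seq, a bulk method with barcoded oligo-dT primers that captures transcripts at their 3' end. The 21 libraries came from 11 mice and comprised 5 control cortex, 6 GA-Camk2a cortex, 4 control hippocampus and 6 GA-Camk2a hippocampus libraries, and 10 mice gave both tissues. A legend of the study gives the control numbers of the tissues the other way around, and the labels were followed here.

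Metallothioneins are small, cysteine-rich proteins that hold zinc and copper and take up reactive oxygen species. Their genes respond to zinc through the metal-responsive factor MTF1, which binds metal response elements close to the start site. In the brain, Mt1 and Mt2 are made largely by astrocytes, whereas Mt3 is found in neurons as well as astrocytes. NRF2 is held in the cytoplasm and degraded with the help of KEAP1 until oxidants or electrophiles release it, after which it binds antioxidant response elements in front of genes such as Nqo1, Hmox1 and glutathione enzymes.

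Libraries held 1048201 to 5888102 counts with a median of 1975173. The GFP row could not check the genotype labels, since it held 0 to 2 counts in control cortex, 0 to 4 in GA-Camk2a cortex, 0 in control hippocampus and 0 to 1 in GA-Camk2a hippocampus. Marker sums are given in counts per 1000000 counts of the library (CPM). Those of 5 hippocampus markers were 563 to 775 in hippocampus and 91.7 to 154 in cortex libraries, so by these markers the tissue labels held. The sum of 4 cortex markers did not separate the tissues, at 223 to 690 CPM in cortex and 165 to 5370 CPM in hippocampus. Of 7 astrocyte markers, 4 were higher in GA-Camk2a cortex and 5 in GA-Camk2a hippocampus, and of 7 microglia markers 5 were higher in each. The largest increases were in Gfap, the astrocyte filament gene, from a mean of 257 to 1225 CPM in cortex, and in the complement gene C1qa, from 77.5 to 307 CPM, whereas Slc1a2, Gja1, P2ry12 and Tmem119 did not pass in either tissue. The sums of these lists did not overlap between groups. Summed astrocyte CPM was 2300 to 3114 in control and 3370 to 4860 in GA-Camk2a cortex, and 2761 to 3262 against 4282 to 5830 in hippocampus. Summed microglia CPM was 201 to 215 against 411 to 620 in cortex and 181 to 206 against 285 to 430 in hippocampus. Markers of striatum, a region next to the cortex, were lower in GA-Camk2a cortex in 6 of 6 cases, with 345 to 522 summed CPM in control and 119 to 203 in GA-Camk2a libraries, and their part in the cortical results was not tested. In hippocampus the same sum was 76.9 to 118 in control and 76.7 to 175 in GA-Camk2a libraries. In bulk tissue, more cells of a type and more RNA per cell cannot be told apart. None of the genes in these lists was at 0 in every library. Some hippocampus libraries stood apart. Those of control mouse 11 and GA-Camk2a mice 16 and 30 had 1455, 5303 and 4414 CPM of Rorb, a layer 4 cortical neuron gene, against 86.6 to 165 CPM in the other 7. In cortex, GA-Camk2a mouse 41 had 612 CPM of Rorb against 133 to 214 in the others, and GA-Camk2a mouse 34 had 8114 CPM of the choroid plexus gene Ttr against 1573 to 2697. The Rorb values of the hippocampus of mice 11, 16 and 30 were thus above that of every cortex library, and their cause was not tested. Choroid plexus markers ranged from 1807 to 32698 summed CPM in control and from 1837 to 55499 in GA-Camk2a hippocampus. Blood markers reached 5554 summed CPM in the hippocampus of GA-Camk2a mouse 41, against 554 to 1704 in the other hippocampus libraries, and were 648 to 939 in control and 710 to 2214 in GA-Camk2a cortex.

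The 3 metallothionein genes lie side by side on mouse chromosome 8. The 250 bases before the start site of each are shown because elements that MTF1 and NRF2 bind are sought in such stretches, with those of Nfe2l2 for comparison. Sequences are from RefSeq on build GRCm38.p6, which had such a window for 8 of the 10 genes, whereas the counts were made on GRCm39. They read 5′ to 3′ on the strand of the gene, and capitals mark matches on either strand to the metal response element core, TGCACNC or TGCGCNC, or to the antioxidant response element core, TGACNNNGC. No 2 of the matches shown overlap.
Mt1, chr8:94178839-94179088, plus strand: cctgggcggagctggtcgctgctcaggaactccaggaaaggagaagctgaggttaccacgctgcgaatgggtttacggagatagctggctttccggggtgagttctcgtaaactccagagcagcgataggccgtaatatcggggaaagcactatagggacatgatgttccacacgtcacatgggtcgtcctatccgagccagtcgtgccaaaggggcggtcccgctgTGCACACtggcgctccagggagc
Mt2, chr8:94172368-94172617, plus strand: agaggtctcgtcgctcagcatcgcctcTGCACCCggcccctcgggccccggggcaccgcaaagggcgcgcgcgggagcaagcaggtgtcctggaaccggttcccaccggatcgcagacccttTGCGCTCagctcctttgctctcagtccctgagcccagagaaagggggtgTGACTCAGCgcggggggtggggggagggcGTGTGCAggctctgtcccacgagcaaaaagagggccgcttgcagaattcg
Mt3, chr8:94152357-94152606, plus strand: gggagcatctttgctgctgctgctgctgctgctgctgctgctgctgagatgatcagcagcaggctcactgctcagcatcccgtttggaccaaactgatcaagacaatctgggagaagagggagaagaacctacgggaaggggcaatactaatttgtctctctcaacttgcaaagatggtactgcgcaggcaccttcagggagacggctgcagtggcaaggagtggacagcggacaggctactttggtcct
Nfe2l2, chr2:75704664-75704913, minus strand: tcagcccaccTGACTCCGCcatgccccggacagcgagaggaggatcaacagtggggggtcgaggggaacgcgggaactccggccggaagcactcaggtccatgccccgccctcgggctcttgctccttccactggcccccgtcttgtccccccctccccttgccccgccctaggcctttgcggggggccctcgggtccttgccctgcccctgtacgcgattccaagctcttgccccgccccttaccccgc
The window of Mt2 held 3 metal response element cores, starting 223, 128 and 50 bases before the start site, and 1 antioxidant response element core 79 bases before it. That of Mt1 held 1 metal response element core, 23 bases before the start site, and that of Mt3 held 0 matches to either element. The window of Nfe2l2 held 1 antioxidant response element core. Among the genes whose windows are not shown, Gstm1 had 1 metal response element core, which lies in both of its overlapping windows, and Nqo1, Gpx1 and Gpx4 had 0 matches. Of 32851 windows of the same length, 21.4% held at least 1 metal response element core, 1.26% held 3 or more, and 10.2% held an antioxidant response element core. A match is a run of letters and not evidence that a factor binds there. The counts cover only the 250 bases before the RefSeq start used, and elements elsewhere were not sought. They depend on where that start lies and do not rank the genes by their elements.

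To ask how neuronal poly-GA affects these genes, GA-Camk2a and control libraries were compared within each tissue. A gene was called when its adjusted p was under 0.05 in edgeR, with the batch of the labels as a covariate and Benjamini-Hochberg adjustment over all genes tested. 9 of the 10 genes had enough counts to be tested, Hmox1 being the exception. In cortex 6 of the 9 were higher and 0 lower, compared with 6.35% higher and 6.17% lower among 13058 genes. In hippocampus again 6 were higher and 0 lower, compared with 4.97% higher and 5.97% lower among 14884 genes. Since the genes were chosen with earlier results of these data known, these shares are descriptive and no test of the set. Mt1, Mt2, Prdx6 and Nfe2l2 rose in both tissues, Mt3 and Gstm1 passed in cortex, and Nqo1 and Gpx1 passed in hippocampus. The median log2 fold change of the 9 genes was 0.62 in cortex and 0.76 in hippocampus, against -0.0050 and 0.016 over all genes tested. With the blood marker level as a covariate, the same 6 genes passed in cortex. Since the same mice gave both tissues, the tissues are not independent tests of genotype.

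Mt1 about doubled in cortex. Its levels in control cortex were 819, 1014, 733, 944 and 829 CPM, and GA-Camk2a cortex ranged from 1386 to 2335 CPM with a median of 1713. The lowest GA-Camk2a library was thus above the highest control, as was the case for 3.5% of all genes in cortex, while for 2.67% the order was the opposite. The log2 fold change was 1.07 ± 0.13 (SE; adjusted p = 5.65e-06), a 2.10-fold difference. In hippocampus, controls had 813, 1000.5, 920 and 1059 CPM, and GA-Camk2a libraries ranged from 1414 to 2264 CPM with a median of 1664. Here too the groups did not overlap, as for 5.6% of all genes in this direction and 4.02% in the other, and the log2 fold change was 0.78 ± 0.11 (adjusted p = 0.000468). Mouse 23 had the highest Mt1 of the hippocampus, and mice 16 and 23 had the highest of the cortex, at 2335 and 2225 CPM. Batch 1 held 3 control and 4 GA-Camk2a cortex libraries, and batch 2 held 2 and 2. For hippocampus, each batch held 2 control and 3 GA-Camk2a libraries. Fits of 1 batch thus had few libraries, and a gene that did not pass in one may still differ. In cortex the log2 fold change of Mt1 was 1.15 within batch 1 and 0.92 within batch 2. In hippocampus it was 0.65 within batch 1, which alone did not pass (adjusted p = 0.150), and 0.90 within batch 2.

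Mt2 had the largest fold change of the 9 genes in cortex. Control cortex had 140, 186, 142, 188 and 145 CPM, while GA-Camk2a cortex ranged from 275 to 516 CPM around a median of 396. No GA-Camk2a value reached down to the controls, and the log2 fold change was 1.35 ± 0.14 (adjusted p = 8.34e-07), or 2.54-fold. Control hippocampus had 155, 194, 174 and 234 CPM, and GA-Camk2a hippocampus ranged from 319 to 519 CPM around a median of 400 (399.7). The hippocampal groups were also separate, with a log2 fold change of 1.03 ± 0.13 (adjusted p = 0.000165), or 2.05-fold. Within batches, Mt2 had log2 fold changes of 1.50 (batch 1) and 1.07 (batch 2) in cortex. In hippocampus these were 0.94, which did not pass (adjusted p = 0.0834), and 1.11. The ratio of Mt2 to Mt1 was also computed. For every 100 Mt1 counts, control cortex held 17.1 to 19.9 Mt2 counts and GA-Camk2a cortex 19.9 to 23.7, and control hippocampus held 18.9 to 22.1 and GA-Camk2a hippocampus 19.2 to 27.0. The groups of this ratio overlapped in both tissues, with GA-Camk2a mouse 35 inside the control range in each, and its difference was not tested. Mt2 also overlaps an antisense gene, and since it is not stated whether strand was used in counting, reads of the pair may be shared.

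Mt3, the brain-enriched metallothionein, changed less. Control cortex had 564, 722, 606, 740 and 687 CPM, and GA-Camk2a cortex ranged from 723 to 1011 CPM with a median of 943. Only the library of GA-Camk2a mouse 30, at 723 CPM, fell within the control range. The log2 fold change in cortex was 0.48 ± 0.10 (adjusted p = 0.00159), or 1.40-fold. Control hippocampus had 655, 741, 785 and 875 CPM against 697 to 1061 CPM with a median of 910 in GA-Camk2a hippocampus. These ranges overlapped broadly, and the hippocampal log2 fold change of 0.16 ± 0.11 did not pass (adjusted p = 0.410). In cortex the log2 fold change of Mt3 was 0.54 within batch 1 and 0.38 within batch 2, the latter not passing (adjusted p = 0.168), and in hippocampus these values were 0.04 and 0.28.

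Mt1, Mt2 and the summed astrocyte markers were all higher in GA-Camk2a mice with no overlap between groups, although 3 of the 7 markers in cortex and 2 in hippocampus did not pass, and the part of astrocyte number or state in the metallothionein levels cannot be told apart from genotype in these libraries.

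**Figure D1:**
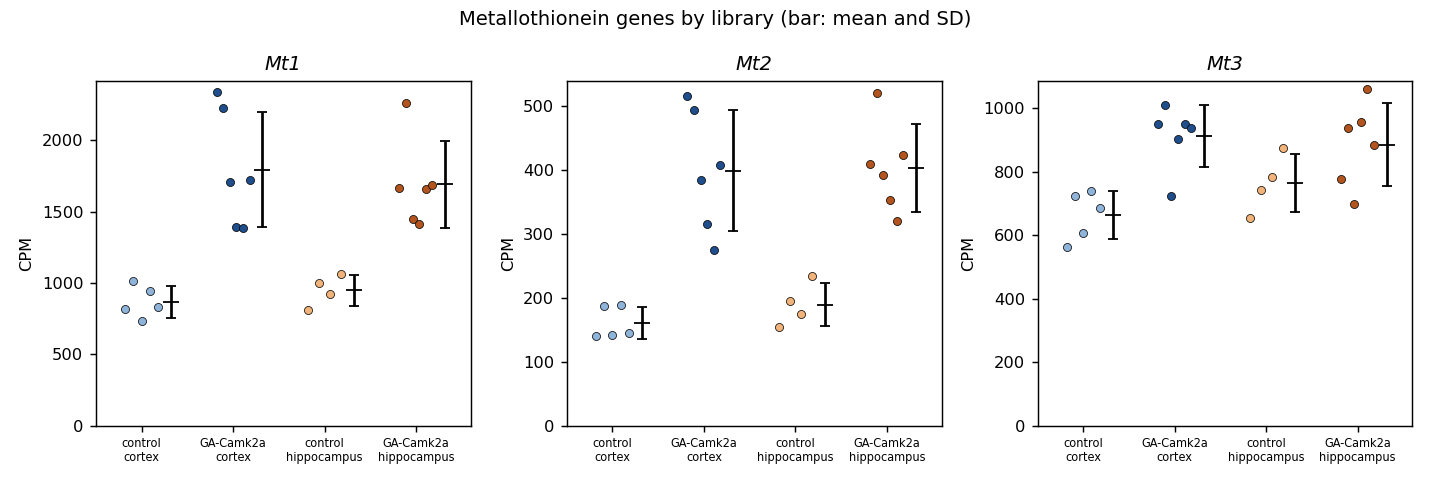
CPM of Mt1, Mt2 and Mt3 (vertical axes, from 0) in each of the 21 libraries, grouped on the horizontal axis by genotype and tissue, with the mean and SD beside the points. Mt1 and Mt2 separate GA-Camk2a from control libraries in both tissues, whereas for Mt3 GA-Camk2a mouse 30 (723 CPM) lies within the control cortex range and the hippocampal groups overlap.

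Nfe2l2, the gene of NRF2, had few counts but was higher in GA-Camk2a mice. Control cortex had 10.5, 14.5, 13.9, 19.2 and 10.8 CPM, from 11 to 39 counts, and GA-Camk2a cortex ranged from 20.6 to 35.1 CPM with a median of 31.2. Control hippocampus had 15.6, 21.7, 18.2 and 18.7 CPM, and GA-Camk2a hippocampus ranged from 26.0 to 39.0 CPM with a median of 32.5. The groups were separate in both tissues, though in cortex by a narrow margin, 20.6 against 19.2 CPM. The log2 fold change of Nfe2l2 was 1.13 ± 0.17 in cortex (adjusted p = 0.000125) and 0.76 ± 0.14 in hippocampus (adjusted p = 0.00294). In cortex, batch 1 alone gave 1.27 (adjusted p = 0.00140) and batch 2 alone 0.85 (adjusted p = 0.145). In hippocampus they gave 0.89 (adjusted p = 0.147) and 0.61 (adjusted p = 0.0810), so that Nfe2l2 passed within 1 of the 4 sets. A small nuclear RNA gene lies within Nfe2l2 on the same strand.

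Prdx6 encodes a peroxiredoxin that reduces phospholipid hydroperoxides and, in the brain, is found mainly in astrocytes. Control cortex had 234, 274, 241, 285 and 276 CPM, and GA-Camk2a cortex ranged from 473 to 736 CPM with a median of 564. Control hippocampus had 236, 240.5, 240.5 and 270.4 CPM, against 413 to 630 CPM with a median of 539 in GA-Camk2a hippocampus. Even the lowest GA-Camk2a library was well above every control of its tissue. The log2 fold change of Prdx6 was 1.18 ± 0.11 in cortex (adjusted p = 1.44e-07), or 2.27-fold, and 1.05 ± 0.10 in hippocampus (adjusted p = 1.33e-05), or 2.07-fold. It passed in both tissues under every setting tried, including each batch alone. In cortex batches 1 and 2 gave 1.26 and 1.03, and in hippocampus 0.86 and 1.24.

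Gstm1 encodes a glutathione S-transferase that couples glutathione to electrophiles. In control cortex it had 301, 341, 240 (239.6), 316 and 346 CPM, and GA-Camk2a cortex ranged from 360 (359.6) to 507 CPM with a median of 478. The groups did not overlap, and the log2 fold change was 0.57 ± 0.11 (adjusted p = 0.00139), with 0.57 and 0.55 within the batches. In hippocampus the controls had 301, 320 (319.6), 353 and 300.0 CPM and GA-Camk2a libraries ranged from 309 to 450.3 CPM with a median of 381. These groups overlapped and the log2 fold change of 0.19 ± 0.08 did not pass (adjusted p = 0.136). Gstm1 has close paralogs in the Gstm cluster, and how reads shared among them were counted is not given in the sources used here.

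The glutathione peroxidases moved less. Gpx1, the abundant cytosolic form that removes hydrogen peroxide, had 154, 149, 129, 178 and 164 CPM in control cortex and 155 to 191 CPM with a median of 169 in GA-Camk2a cortex, so that the ranges largely coincided (log2 fold change 0.17 ± 0.10, adjusted p = 0.286). In hippocampus, Gpx1 had 95.5, 102, 106 and 115 CPM in controls and 124 to 246 CPM with a median of 152 in GA-Camk2a libraries. The hippocampal groups did not overlap, and the log2 fold change was 0.57 ± 0.15 (adjusted p = 0.0229). This call depended on the setting. It was lost within batch 1 (0.40, adjusted p = 0.384) and batch 2 (0.74, adjusted p = 0.0581), without control mouse 11, 20 or 31 (adjusted p = 0.0740, 0.106 and 0.106), and without the 3 Rorb-high libraries (0.53, adjusted p = 0.103). The highest Gpx1 value, 246 CPM, was from GA-Camk2a mouse 41, whose hippocampus also had the highest blood markers, 5554 summed CPM. Without that library the log2 fold change was 0.44 (adjusted p = 0.0395), and with the blood marker level as a covariate it was 0.43 (adjusted p = 0.105).

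Gpx4, which protects membranes from lipid peroxidation and the cell from ferroptosis, was not called in either tissue. It ranged from 103 to 144 CPM in control cortex and from 133 to 153 in GA-Camk2a cortex (log2 fold change 0.18 ± 0.10, adjusted p = 0.280). In control hippocampus it ranged from 108 to 127 CPM and in GA-Camk2a hippocampus from 113 to 174 (0.29 ± 0.13, adjusted p = 0.184). The groups overlapped in both tissues.

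Nqo1, a quinone reductase and classical NRF2 target, was low in cortex and variable in hippocampus. Control cortex had 6.68, 7.27, 4.03, 6.08 and 5.82 CPM and GA-Camk2a cortex ranged from 5.25 to 10.8 CPM with a median of 9.77, so the groups overlapped (log2 fold change 0.62 ± 0.25, adjusted p = 0.119). Control hippocampus had 6.17, 7.81, 5.70 and 7.07 CPM. Among GA-Camk2a hippocampus libraries, mice 16, 30 and 35 had 28.7, 26.6 and 25.6 CPM, and mice 23, 41 and 34 had 14.0, 13.3 and 8.87 CPM. All 6 were above the controls, and the log2 fold change was 1.49 ± 0.31 (adjusted p = 0.00602), or 2.82-fold. The 3 mice with the highest Nqo1 also had the most choroid plexus marker RNA, 55499, 49776 and 45913 summed CPM, against 9545, 1837 and 1966 in mice 23, 41 and 34. Control mouse 20, with 32698 summed CPM, had 7.81 CPM of Nqo1. With the choroid plexus level as a covariate the log2 fold change of Nqo1 was 1.46 ± 0.18 (adjusted p = 5.78e-05). The choroid plexus sums of mice 16, 30 and 35 were above that of every control, so for them this fit reaches past the controls. The part of choroid plexus RNA in the hippocampal Nqo1 levels was not tested. Neither batch alone passed for Nqo1 (1.67, adjusted p = 0.177, and 1.26, adjusted p = 0.0553), nor did the comparison without the 3 Rorb-high libraries (0.98, adjusted p = 0.0668). In cortex, Nqo1 passed once the library of GA-Camk2a mouse 35 was left out (0.79, adjusted p = 0.0450).

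Hmox1, which opens the heme ring and is another NRF2 target, was close to the detection limit. Control cortex held 0, 1, 1, 0 and 1 counts, and GA-Camk2a cortex 1, 7, 4, 2, 1 and 1. Control hippocampus held 6, 3, 3 and 3 counts, and GA-Camk2a hippocampus 6, 1, 7, 3, 2 and 3. Summed over libraries, these were 3, 16, 15 and 22 counts. With the filter on low counts removed, the log2 fold change of Hmox1 was 2.00 ± 0.77 in cortex (adjusted p = 0.208) and 0.50 ± 0.52 in hippocampus (adjusted p = 0.792), so a difference was not detectable at this depth.

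**Figure D2:**
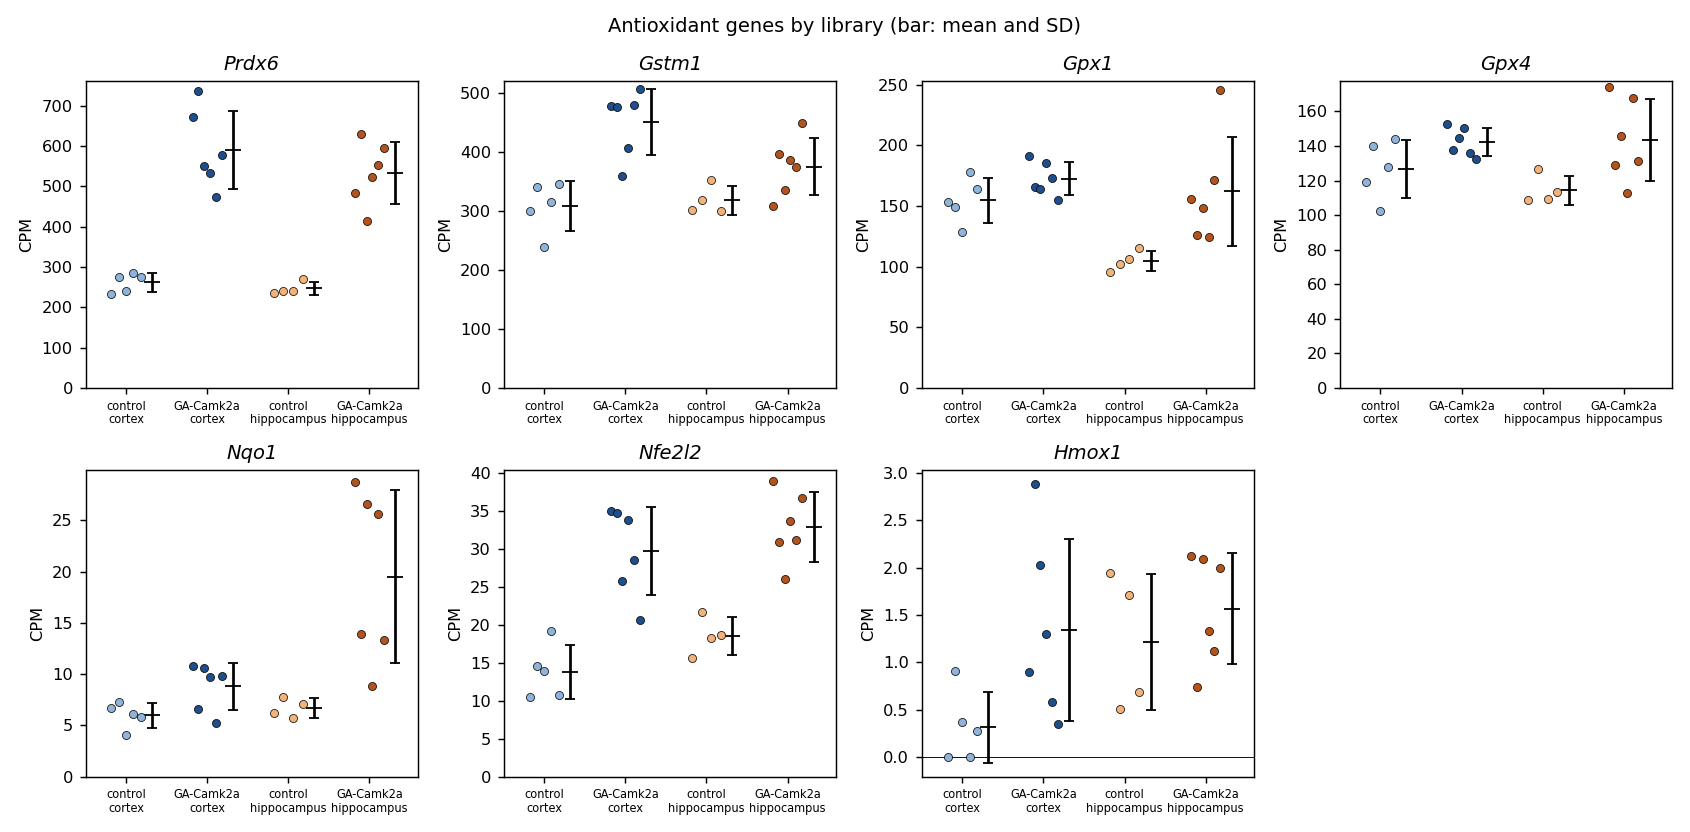
CPM of the other 7 genes (vertical axes) in each library, grouped by genotype and tissue on the horizontal axis, with mean and SD beside the points. Prdx6 and Nfe2l2 are higher in GA-Camk2a libraries of both tissues, Gstm1 separates the groups in cortex and Gpx1 and Nqo1 in hippocampus, and Hmox1 stays under 3 CPM.

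The genes that passed in one tissue and not in the other raise the question of whether the genotype effect differed between tissues. This was tested as an interaction over all 21 libraries, and 0 of the 9 genes passed, as did 0.4% of 14751 genes. The same number, 0, was called by DESeq2 and by limma-voom, and 3 of the 9 had an unadjusted edgeR p under 0.05. By edgeR these were Gstm1 (hippocampal minus cortical log2 fold change -0.39 ± 0.14, adjusted p = 0.318), Mt3 (-0.33 ± 0.15, adjusted p = 0.439) and Gpx1 (0.39 ± 0.18, adjusted p = 0.470). For Nqo1 the difference was 0.87 ± 0.44 (adjusted p = 0.512), and for Mt1, Mt2, Prdx6 and Nfe2l2 it was -0.31, -0.32, -0.15 and -0.36 (adjusted p between 0.605 and 0.813). A difference between tissues was therefore not shown for any of the 9 genes.

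**Figure D3:**
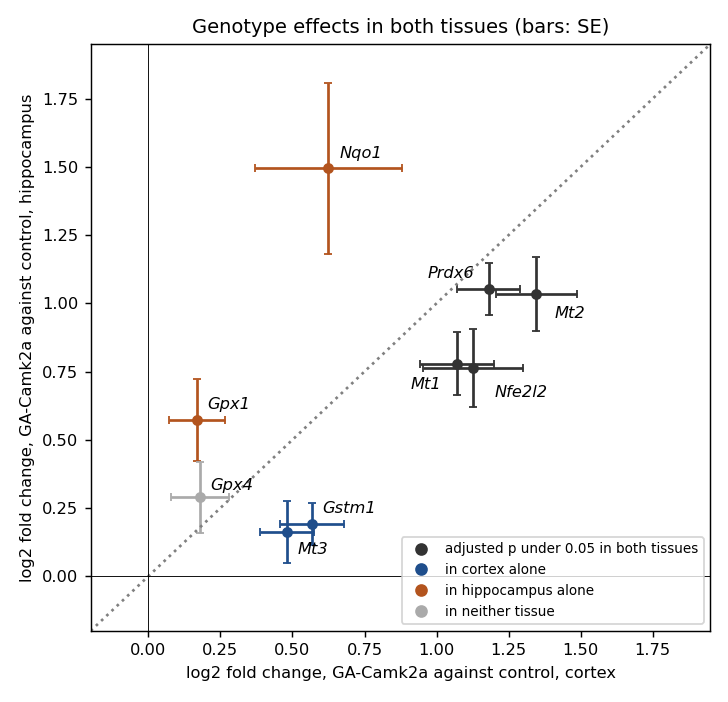
Log2 fold change of GA-Camk2a against control in cortex (horizontal axis) and in hippocampus (vertical axis) for the 9 genes tested, with SE bars and a dotted line of equal effect, colored by the tissue in which the adjusted p was under 0.05. Mt1, Mt2, Prdx6 and Nfe2l2 lie to the upper right, Gstm1 and Mt3 near the horizontal axis, and Nqo1 and Gpx1 above the line.

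Cortex and hippocampus were also compared within each genotype. In control mice, Gpx1 was the 1 gene of the 9 that differed, with 95.5 to 115 CPM in hippocampus and 129 to 178 CPM in cortex. The tissues did not overlap, as for 5.58% of all genes in this direction and 8.15% in the other, and the log2 fold change of hippocampus against cortex was -0.62 ± 0.11 (adjusted p = 0.00118), while 7.6% of 14435 genes were lower and 8.69% higher. All 4 choroid plexus markers were also higher in control hippocampus, and with their level as a covariate Gpx1 no longer passed (-0.70 ± 0.20, adjusted p = 0.0541). In GA-Camk2a mice 2 of the 9 genes differed, 1 in each direction, while 17.3% of 13098 genes were higher and 15.9% lower. Nqo1 was higher in hippocampus (log2 fold change 1.18 ± 0.29, adjusted p = 0.00461) and Gstm1 lower (-0.40 ± 0.09, adjusted p = 0.00354), and for both the tissues overlapped, whereas the tissues were separate for 9.54% of all genes higher and 3.46% lower in hippocampus. With the choroid plexus level as a covariate, the log2 fold change of Nqo1 was 0.31 ± 0.27 (adjusted p = 0.442) and that of Gstm1 was -0.30 ± 0.12 (adjusted p = 0.0732), neither passing. Without the 3 Rorb-high libraries Nqo1 did not pass either (0.55, adjusted p = 0.241), whereas Gstm1 did (-0.33, adjusted p = 0.0416). Prdx6 was close to the threshold (-0.27 ± 0.11, adjusted p = 0.0595) and passed with the mouse as a block (-0.26, adjusted p = 0.0425) and in DESeq2 (-0.28, adjusted p = 0.0487). Mt1, Mt2, Mt3, Gpx4 and Nfe2l2 were not called between tissues in either genotype, although in GA-Camk2a mice Gpx4 passed with the choroid plexus level as a covariate (-0.35, adjusted p = 0.0263) and Mt1 without the cortex of mouse 35 (-0.34, adjusted p = 0.0445), and in control mice Gpx4 passed without the cortex of mouse 31 (-0.29, adjusted p = 0.0358).

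**Figure D4:**
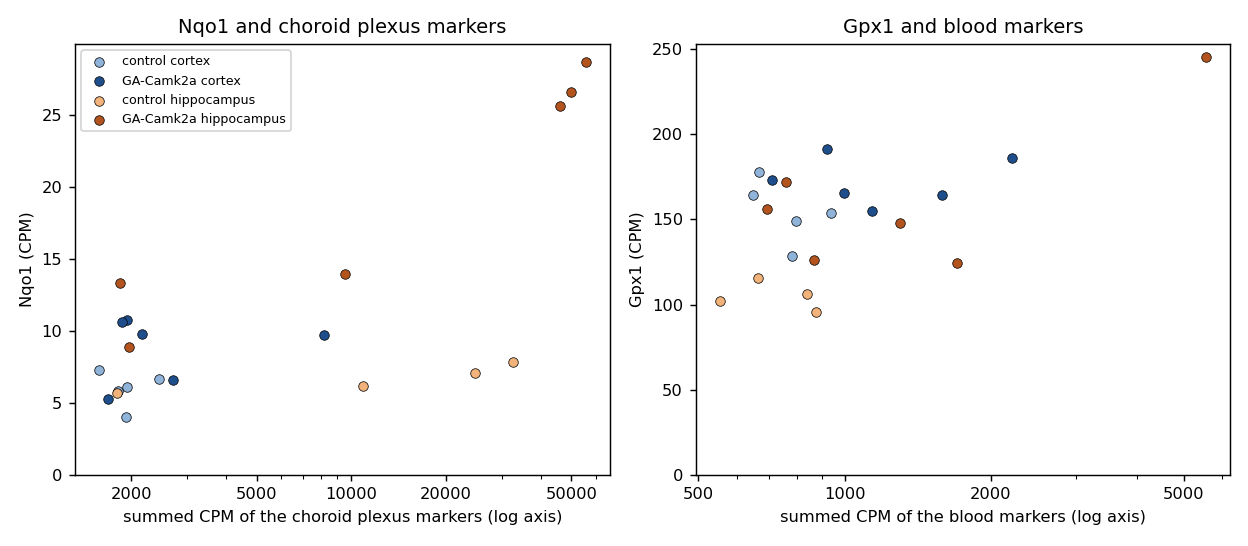
Left, CPM of Nqo1 against the summed CPM of 4 choroid plexus markers (log axis), and right, CPM of Gpx1 against the summed CPM of 5 blood markers (log axis), with 1 point for each of the 21 libraries colored by group. The 3 GA-Camk2a hippocampus libraries with 25.6 to 28.7 CPM of Nqo1 have 45913 to 55499 summed CPM of choroid plexus markers. Control hippocampus libraries have up to 32698 summed CPM of these markers and up to 7.81 CPM of Nqo1. The library with 246 CPM of Gpx1 has 5554 summed CPM of blood markers.

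Genes also varied together among mice of the same group. After the means of group and batch were removed in each tissue, the Pearson correlation of log2 CPM over the 21 libraries was 0.93 for Mt1 and Mt2, 0.81 for Mt1 and Prdx6, 0.74 for Mt2 and Prdx6, and 0.61 for Mt3 and Prdx6. Mt3 varied separately from the other metallothioneins, with 0.28 to Mt1 and 0.20 to Mt2. Nqo1 was most like Gpx4, at 0.81, and was near 0.22 to Mt1 and -0.07 to Nfe2l2. These values describe the libraries, which share mice between tissues, and carry no test. Among 12916 genes, the 5 most like Mt1 were Mt2, Polr2h (0.83), Apoe (0.82), Adamtsl2 (0.81) and Prdx6, and those most like Mt2 were Mt1, Smpd2 (0.80), Polr2h (0.80), Adamtsl2 (0.79) and Ube2q2 (0.77). The genes most like Prdx6 were Gstm5, another glutathione transferase (0.88), Clu, the gene of clusterin (0.87), Gm38944 (0.82), Rida (0.81) and Mt1. For Mt3 they were Rpl13-ps1 (0.89), Txn1 (0.86), Gm27246 (0.86), Ly6c1 (0.85) and Txn-ps1 (0.84), of which 2 are named as pseudogenes and may share reads with their parent genes. For Gstm1 they were Gm14138 (0.80), Sh3bgrl3 (0.78), Mcrip1 (0.78), Asb8 (0.77) and Timm8b (0.77).

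The wider pathway was covered by 79 further genes in 6 lists, also chosen with earlier results of these data known. In cortex 12 of 73 genes tested were higher and 2 lower, a share called of 19.2% against 12.5% of all genes, and the median log2 fold change was 0.15. With the blood marker level as a covariate, 6 genes of the lists were called in cortex, while calls over all genes fell from 1635 to 721. In hippocampus 10 of 75 were higher and 2 lower, 16% against 10.9% of all genes, with a median of 0.13. Without the 3 Rorb-high libraries, 7 were called, while calls over all genes fell from 1628 to 1005.

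Of the metal handling genes, 5 of 17 were higher and 2 lower in cortex, and 3 of 18 were higher and 2 lower in hippocampus, shares called of 41.2% and 27.8%. Over all genes these shares were 12.5% and 10.9%. The subunits of ferritin, the iron store of the cell, rose in cortex, Ftl1 from 343 ± 81.0 to 613 ± 61.6 CPM (mean ± SD, n = 5 and 6; log2 fold change 0.88, adjusted p = 9.13e-06) and Fth1 from 3978 ± 376 to 6011 ± 715 CPM (0.61, adjusted p = 0.000268). In hippocampus Ftl1 rose by 0.73 (adjusted p = 0.00107), and Cp, the copper-carrying ferroxidase ceruloplasmin, rose from 9.19 ± 1.37 to 22.2 ± 7.10 CPM (n = 4 and 6; 1.23, adjusted p = 0.00344). The zinc transporters Slc30a3, which loads zinc into synaptic vesicles, and Slc39a10, an importer, fell in both tissues. Slc30a3 fell by 0.76 in cortex (adjusted p = 0.000465) and 0.47 in hippocampus (adjusted p = 0.0257), and Slc39a10 fell by 0.78 (adjusted p = 0.000270) and 0.64 (adjusted p = 0.00587). Markers of excitatory neurons, the cells that express the transgene, were lower as well, with 4 of 6 called in each tissue and summed CPM of 903 to 1300 (1300.4) in control against 671 to 853 in GA-Camk2a cortex, and 1330 (1330.1) to 1653 against 657 to 886 in hippocampus. Their part in the fall of the zinc transporters was not tested.

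Of 22 genes for glutathione synthesis and glutathione enzymes, 4 were higher in cortex and 3 in hippocampus, with 0 lower. These shares were 18.2% and 13.6%. Of all genes, 12.5% and 10.9% were called in either direction, and 6.35% and 4.97% were called higher. Mgst1, a membrane-bound glutathione transferase, rose in both (0.93, adjusted p = 7.61e-05, and 0.92, adjusted p = 0.00785). Gstm2 rose in cortex from 4.58 ± 1.13 to 9.83 ± 3.74 CPM (1.04, adjusted p = 0.0196). The secreted peroxidase Gpx3 rose in hippocampus from 15.0 ± 3.63 to 34.6 ± 16.7 CPM (1.12, adjusted p = 0.00785). Choroid plexus markers reached 32698 summed CPM in control and 55499 in GA-Camk2a hippocampus, and their part in Gpx3 and Cp was not tested. Of 11 thioredoxins and peroxiredoxins, Txnip, which restrains thioredoxin, and the peroxidase Prdx1 were higher in both tissues, 18.2% of the list. Txnip had log2 fold changes of 0.80 (adjusted p = 0.0231) and 1.05 (adjusted p = 0.00182), and Prdx1 of 0.45 (adjusted p = 0.00339) and 0.46 (adjusted p = 0.00918).

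Of 13 tested heme, quinone and NADPH enzymes, the epoxide hydrolase Ephx1 was higher in cortex (0.65, adjusted p = 0.00347), and the biliverdin reductase Blvrb (0.70, adjusted p = 0.0282) and the NADPH-producing G6pdx (0.56, adjusted p = 0.0139) were higher in hippocampus, shares of 7.69% and 15.4%. The shares over all genes, in either direction, were 12.5% in cortex and 10.9% in hippocampus. None of the 4 genes for superoxide and peroxide removal was called by edgeR in either tissue, although 3 had an unadjusted p under 0.05 in each, and DESeq2 called 0 in each and limma-voom 0 and 1. Of the regulators of NRF2, edgeR, DESeq2 and limma-voom called 0 of 6 in cortex and 0 of 7 in hippocampus, with 1 and 0 at an unadjusted p under 0.05. The interaction between tissue and genotype was called for 0 of the 75 genes by these 3 tools, with 9 at an unadjusted edgeR p under 0.05. Between tissues, 4 of 75 genes were higher and 7 lower in control hippocampus, a share called of 14.7% against 16.3% of all genes, and 12 of 73 were higher and 17 lower in GA-Camk2a hippocampus, 39.7% against 33.2%.

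**Figure D5:**
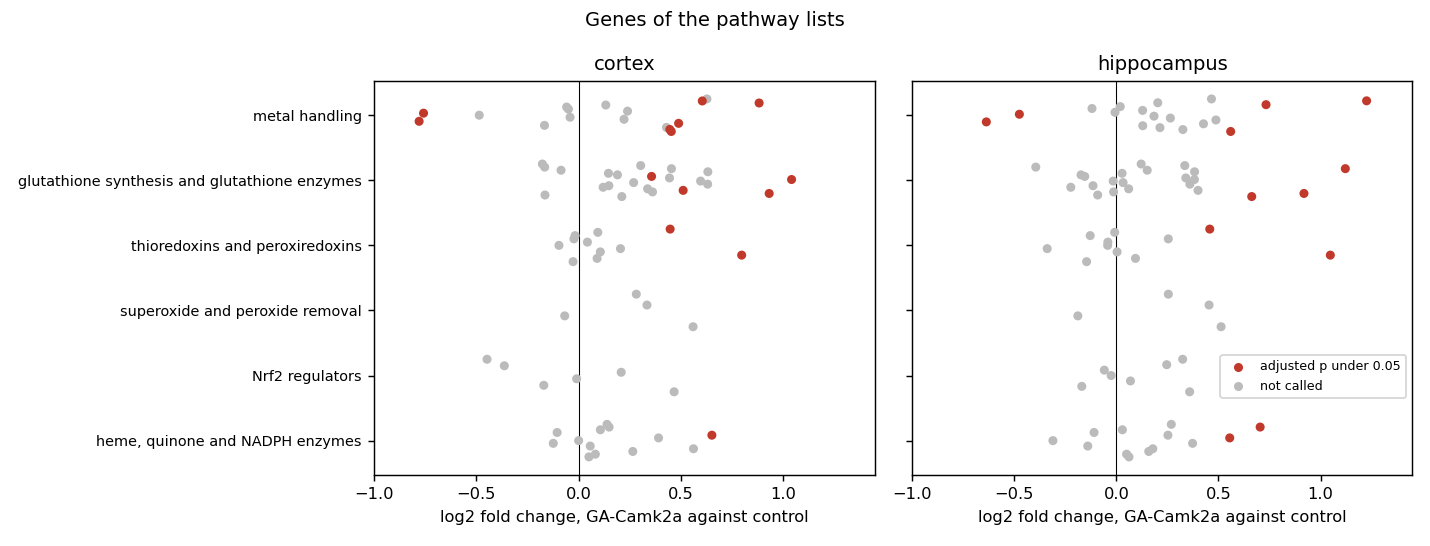
Log2 fold change of GA-Camk2a against control (horizontal axes) for the genes of the 6 lists (rows), in cortex (left) and hippocampus (right), with 1 point per gene, red where the adjusted p was under 0.05. Called genes lie mostly to the right of 0, with Slc30a3 and Slc39a10 of the metal handling list to the left, and no gene is called in the rows for superoxide and peroxide removal or NRF2 regulators.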

How the data were processed

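Bulk prime-seq counts of the cortex and hippocampus of 11 mice were analyzed. According to the submitters' notes and the study's methods, which give no order of steps, the authors used FastQC 0.11.8, cutadapt 1.12, STAR and zUMIs on build GRCm39. The table deposited by the authors holds raw integer counts. Whether these are reads or molecular identifiers, which annotation was used, and whether strand was used are not given in the sources used here. If they are reads, counting error understates technical error. Sex is not given in the labels used here, and the study's methods state that its GA-Camk2a mice came from 2 litters.

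Symbols were matched by Ensembl number for 43308 of 64361 genes, which held 96.1% of counts. The GFP row stayed out of totals and tests. CPM is a gene's count per 1000000 counts. Groups, mouse numbers and batches came from the labels. Genotypes were compared per tissue, tissues per genotype, and both in an interaction, with edgeR 4.0.16 in R 4.3.3 (TMM, filterByExpr with a minimum count of 10, quasi-likelihood F-test, batch as covariate, Benjamini-Hochberg adjustment over all genes tested, threshold 0.05). The study names DESeq2 without covariates. Alternatives were DESeq2 1.42.0, limma-voom 3.58.1 with quality weights, other normalizations and filters, thinning to 1048201 counts, no batch term, single batches, left-out libraries, and a mouse block where tissues were compared. Choroid plexus or blood level as a covariate and leaving out the 3 Rorb-high libraries were chosen after seeing the data. The fits were tested on simulated counts.

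Counts of 46 replicate pairs differed by more than sampling noise (chi-square divided by its degrees of freedom, 2.10 to 15.1). Mouse numbers pair the tissues by animal. The deviations of the 2 libraries of a mouse from their group means correlated at -0.20 to 0.35 over 10 mice, with 5 above 0.1. Those 5 were the mice whose 2 libraries share a batch. With batch means also removed, the values were -0.022 to 0.18, with 4 above 0.1. The pairing therefore rests on the labels.

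Named were the 10 genes, at most the 2 most changed called genes of each pathway list, direction and tissue, and the 5 genes most like Mt1, Mt2, Mt3, Prdx6 and Gstm1. The 10 genes and the lists were chosen with earlier results of these data known. Rorb was named after its values were seen.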

Additional observations from a re-analysis of the deposited data

Results flagged for a closer look

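In each group of 4 to 6 libraries, the highest and the lowest value of each of the 10 genes was compared with its neighbor by Dixon's test, over 40 groups, of which about 1 in 20 would be set apart without any cause. Mt3 was unusually low in the cortex of GA-Camk2a mouse 30, at 723 CPM, with the next library at 904 CPM. Prdx6 was unusually high in the hippocampus of control mouse 37, at 270.4 CPM, with the next at 240.5 CPM, and this library was still below every GA-Camk2a hippocampus library. Both genes kept their calls when these libraries were left out.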

How the results depend on the processing

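Of the values of single genes recomputed under the alternatives, 1067 kept their direction and side of the threshold, 20 lost the threshold, 9 gained it and 15 changed sign. Those that changed sign were differences near 0 between tissues. In control mice these were Mt1 (-0.14), Mt2 (-0.10), Nqo1 (-0.19) and Gstm1 (0.023) with the choroid plexus covariate, and Gstm1 without the count filter (0.0026, where the median of all genes moved to 0.116) and with the mouse block (0.046). In GA-Camk2a mice it was Gpx4 after thinning (0.025), and in the interaction Gpx4 without the Rorb-high libraries (-0.031). Leaving out 1 library at a time gave -0.064 to 0.12 for Mt1, -0.019 to 0.28 for Mt2 and -0.11 to 0.041 for Gstm1 in control mice, and -0.22 to 0.035 for Mt2, -0.16 to 0.025 for Gpx4 and -0.034 to 0.14 for Nfe2l2 in GA-Camk2a mice, each of which crossed 0.

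With 1 library left out, the number of the 9 genes called was 6 to 7 in cortex, 5 to 6 in hippocampus and 0 for the interaction. Between tissues it was 1 to 2 in control mice, with Gpx4 added without control cortex 31 (adjusted p = 0.0358), and 2 to 4 in GA-Camk2a mice, with Mt1 (adjusted p = 0.0445) and Prdx6 (adjusted p = 0.00874) added without GA-Camk2a cortex 35 and Gpx1 (adjusted p = 0.0275) without GA-Camk2a hippocampus 41. In hippocampus, 1 of the genes was called in batch 1 alone, 3 in batch 2 alone and 4 without the Rorb-high libraries, against 6, and Gpx4 passed with the blood covariate (adjusted p = 0.0486). With the choroid plexus covariate 0 genes, against 1, were called between tissues in control mice. In GA-Camk2a mice 1, against 2, was called, which was Gpx4 in place of Nqo1 and Gstm1, and without the Rorb-high libraries it was Gstm1 alone.

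Of the pathway genes, batch 1 alone, batch 2 alone and the blood covariate called 9, 2 and 6 in cortex, against 14. In hippocampus, batch 1 alone, batch 2 alone and leaving out the Rorb-high libraries called 1, 4 and 7, against 12. Without the count filter the interaction called 2, Fth1 and Txn1, against 0. Between tissues in control mice, limma-voom called 17, thinning 7, the choroid plexus covariate 3 and leaving out the Rorb-high libraries 7, against 11, and left-out libraries gave 5 (control cortex 38) to 17 (control cortex 31). In GA-Camk2a mice, thinning called 18, the choroid plexus covariate 17 and leaving out the Rorb-high libraries 14, against 29. The cause of these changes was not tested, although single batches, left-out libraries and thinning hold fewer samples or counts.

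Over all genes, the calls moved from 1635 to between 230 (batch 2 alone) and 1064 (thinned) in cortex, with 721 under the blood covariate, 876 in batch 1 and 1038 without control cortex 31. In hippocampus they moved from 1628 to 115 (batch 1), 681 (batch 2), 953 (thinned), 1005 (without the Rorb-high libraries), 1082 and 1038 (without control hippocampus 20 or 31). The interaction moved from 59 to 159 (no count filter), 127 (DESeq2), 36 (no batch term), 20 (without the Rorb-high libraries) and 16 (thinned), and to 22 to 39 without any one of control cortex 11, 31 or 37, GA-Camk2a cortex 23 or 35, control hippocampus 11, 31 or 37, or GA-Camk2a hippocampus 23. Between tissues, control mice moved from 2351 to 1377 (thinned) and 548 (choroid plexus covariate), and GA-Camk2a mice from 4350 to 2834 with that covariate. With the mouse as a block for the pairing of tissues, the 9 genes had 0 calls in the interaction, 1 between tissues in control mice and 3 in GA-Camk2a mice, where Prdx6 was added, and no other call among them changed. Depth limits Hmox1 most, with at most 7 counts in a library.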
